A study of Homo sapiens with 24 samples.

Results

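Among the introns of HCT116 cells, 1428 were retained in cells expressing wild-type (WT) PHF5A after E7107 and were spliced in cells expressing PHF5A-Y36C after the same compound. An intron was read at both of its ends, as the percentage of reads at the splice site that ran from the exon straight into the intron (boundary percent spliced in, boundary PSI). An intron belonged to the set when the mean boundary PSI at both ends was at most 5% in WT DMSO, at least 60% in WT E7107 and at most 10% in Y36C E7107, with reads at both sites in all 24 samples and with the intron as the most used junction of both sites in WT DMSO. Of 527861 introns with both ends listed, 94189 met the requirements on reads and on use, and are called eligible here. The set was 1.52% of them. Of 1589 eligible introns that were low in WT DMSO and at 60% or more at both ends in WT E7107, the set held 89.9%. The other 161 were above 10% at an end in Y36C E7107 and are called not spared. That name marks the threshold only. Their median boundary PSI at the 5′ and 3′ ends was 10.78% and 12.05% in Y36C E7107, against 75.41% and 79.03% in WT E7107. In Y36C E7107 only 1 of them was at 30% or more at both ends. The set lay in 664 genes, no intron of it overlapped another on the same strand, and 76 overlapped an exon of another gene.

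HCT116 is a human colorectal carcinoma line. Lentiviral cDNA of WT or Y36C PHF5A was overexpressed in the parental cells, whose own PHF5A gene was still present, and each line was treated with DMSO or E7107 for 6 h. Each of the 4 combinations of genotype and treatment had 6 polyA RNA samples, and they are named here by genotype and treatment. The labels give no dose, and none is printed here. The methods describe 6 parallel treatments before lysis, and the labels do not say that these were separate cultures, so p-values measure the spread between these samples within 1 cell line a genotype.

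The depth behind a single PSI is unknown, because the files hold percentages only, and no interval or smallest detectable share can be given. Splice sites with reads numbered 336249 to 340081 in the DMSO samples, 328458 to 331604 in Y36C E7107 and 281164 to 283548 in WT E7107, so the group in which the set was retained had the fewest. The part of this difference in the results was not tested. Junction percentages cannot show the Y36C codon, and the 3 introns of PHF5A itself were at 1.14% or less in every group mean. Of the epithelial markers, EPCAM had reads in all samples at 17 of 20 listed sites, CDH1 at 30 of 30, KRT8 at 21 of 26, KRT18 at 14 of 14 and KRT19 at 10 of 12, VIL1 at 0 of 1, and CDX1 was listed at no site. The T cell markers CD3E, CD2 and PTPRC, the endothelial PECAM1 and CDH5 and the hepatocyte marker APOB were listed at no site, and VWF and ALB had reads in all samples at none of their 11 sites and 1 site. Of the fibroblast markers, COL1A2 and DCN were listed at no site, while COL1A1 had reads in all samples at 85 of 96.

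PHF5A is a small subunit of SF3b, the part of the U2 small nuclear ribonucleoprotein that holds the branch point adenosine of an intron near its 3′ end. Splicing joins the 5′ splice site first to that adenosine, and then the upstream exon to the downstream one. E7107 is a pladienolide derivative that binds SF3b beside PHF5A and SF3B1. An intron that is not removed is scored as intron retention (IR), and an exon that is passed over as exon skipping (ES).

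The last 50 bases of an intron hold its branch point region, its pyrimidine tract and its 3′ splice site, and they are printed here because E7107 acts at the branch point. The sequences are of the transcribed strand in GRCh37, 5′ to 3′, and capitals mark the branch point motif YTNAY (a match to CTNAC or to CTNAT, and equally to TTNAC or to TTNAT, N being any base) where it lies 50 to 15 bases before the end of the intron. The motif was searched on the transcribed strand only, and at least 1 match stood in the window of 64.6% of all eligible introns. A match is not a mapped branch point. The first 5 are coding introns of 100 bases or more that had some of the largest differences between WT E7107 and Y36C E7107. Their printed bases lie at chr7:1579527-1579576, chr12:52450791-52450840, chr9:136280132-136280181, chr3:134085270-134085319 and chr19:10218430-10218479, on the minus strand in REXO4 and AMOTL2.
MAFK intron 2: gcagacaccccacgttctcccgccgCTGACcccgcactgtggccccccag
NR4A1 intron 4: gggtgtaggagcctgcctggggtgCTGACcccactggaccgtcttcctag
REXO4 intron 1: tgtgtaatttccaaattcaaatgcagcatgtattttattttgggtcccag
AMOTL2 intron 3: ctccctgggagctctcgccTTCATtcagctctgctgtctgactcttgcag
PPAN intron 3: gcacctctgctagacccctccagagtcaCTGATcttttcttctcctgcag

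The next 3 introns of the set had some of the largest increases of other junctions in Y36C E7107, described further on. They lie at chr2:152314225-152314274, chr4:99403327-99403376 (minus strand) and chr10:127417877-127417926.
RIF1 intron 23: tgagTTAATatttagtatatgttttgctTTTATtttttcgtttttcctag
TSPAN5 intron 3: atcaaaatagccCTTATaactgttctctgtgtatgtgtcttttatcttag
EDRF1 intron 7: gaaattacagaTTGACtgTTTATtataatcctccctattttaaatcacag

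The last 4 were not spared and were among the highest in Y36C E7107. They lie at chr3:49760188-49760237, chr19:10673514-10673563, chr9:124525734-124525783 and chr16:69788630-69788679, all but the third on the minus strand.
GMPPB intron 4: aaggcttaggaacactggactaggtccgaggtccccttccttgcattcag
KRI1 intron 3: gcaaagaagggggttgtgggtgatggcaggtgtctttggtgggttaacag
DAB2IP intron 6: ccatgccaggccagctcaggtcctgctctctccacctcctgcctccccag
NOB1 intron 1: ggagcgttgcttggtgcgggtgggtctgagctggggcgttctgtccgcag
No match lay inside the search window in these 4 introns, whereas 7 of the 8 introns of the set printed here had one there, all but REXO4 intron 1. Letters that spell the motif nearer to the 3′ end, outside the window, were not counted and are not in capitals. The share over all introns of each kind is given below.

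The boundary PSI of the set chose its members, so its levels in the groups used by the rule are a description. The median over the 1428 introns of the group mean at the 5′ boundary was 1.47% in WT DMSO and 72.47% in WT E7107. In Y36C cells the median at the 5′ boundary was 1.26% in DMSO and 2.24% in E7107. At the 3′ boundary the medians were 1.78%, 73.73%, 1.52% and 2.62% in the same order of groups. By sample, the median over the set at the 5′ boundary lay between 70.97% and 75.76% in WT E7107 and between 1.84% and 2.13% in Y36C E7107, as the plot of medians by sample shows. The lowest WT E7107 sample was replicate 5 at both ends.

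**Figure D1:**
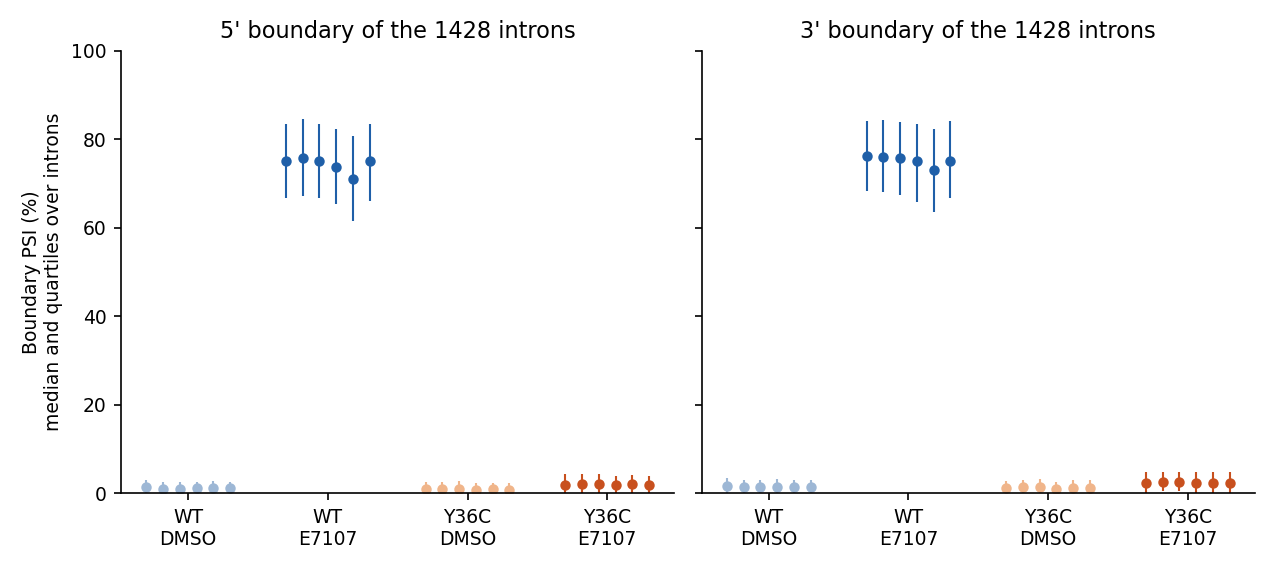
Boundary PSI of the 1428 introns in each of the 24 samples, at the 5′ boundary (left) and the 3′ boundary (right). Points are the median over introns and lines the quartiles, in percent, for 6 samples a group. The 6 WT E7107 samples sit at 70.97% or more and all other samples at 2.5% or less.

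WT E7107 stood apart from the other groups in nearly all introns of the set. In 1421 of the 1428 introns every WT E7107 sample was above every Y36C E7107 sample at both ends, as the thresholds of the rule nearly enforce, and in 23.1% of all eligible introns. The spread between samples was wider where the intron was retained, with a median SD of 7.35 points at the 5′ boundary in WT E7107 and 1.66 in Y36C E7107. At both ends 50 introns had a mean of 90% or more in WT E7107, and 144 had a mean under 1% in Y36C E7107. The mean boundary PSI of the 2 ends lay within 10 points of each other in WT E7107 for 1213 introns.

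Y36C DMSO was the group that the rule did not use, while it capped WT DMSO at 5%, so the comparison of the 2 is given as a description. None of the 2856 ends of the set differed between Y36C DMSO and WT DMSO at an adjusted p of 0.05 or less by limma, of 2482 that passed the filter on low values, and 176 had an unadjusted p under 0.05. Over all 182010 boundary rows tested, 0.0121% were higher and 0.00824% lower in Y36C DMSO, so that few or no calls in the set are what this background gives. In Y36C DMSO 87 introns had a mean over 5% at an end, and the highest mean was 9.72%.

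After E7107, the mean over both ends was higher than in DMSO for 1170 of the 1428 introns in Y36C cells, with a median difference of 0.874 points. This count was not made over all eligible introns. Their median boundary PSI in Y36C cells was 0.88% in DMSO and 1.49% in E7107 at the 5′ end. At the 3′ end it was 1.12% and 1.75%. By limma, 262 of the 2856 ends were higher and 3 lower in Y36C E7107, of 2590 that passed the filter. Of all 180483 rows tested, 9.89% were higher and 0.364% lower. Because the rule capped the level in Y36C E7107 at 10%, nothing about the set is read from these counts. With the additional requirement of a change of 5 points, the limma count was 75 higher and 1 lower. In 38 introns (2.66%) every Y36C E7107 sample was above every Y36C DMSO sample at both ends, against 3.35% of all eligible introns.

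Near the thresholds, TNFRSF1A intron 4 was inside with 4.996% in WT DMSO, and KMT2D intron 19 outside with 5.011%. KIF20B intron 16 was inside with 60.053% in WT E7107, and PLK1 intron 4 outside with 59.984%. BRD2 intron 2 was inside with 9.973% in Y36C E7107, and COASY intron 7 outside with 10.062%. These 3 pairs differed across the threshold by less than 0.1 point, well under the spread between samples.

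Of the 10 introns with the largest difference between the genotypes under E7107, 1 a gene, 9 are described here, and they were at 92.34% or more at both ends in WT E7107. MAFK, which encodes a small Maf transcription factor, held the first of them in its coding region, intron 2 at chr7:1578865-1579576. The 5′ boundary of MAFK intron 2 had a lowest, median and highest value of 96.53%, 97.56% and 98.62% in WT E7107. In Y36C E7107 the same boundary had 1.72%, 2.88% and 3.82%, and in WT DMSO 0%, 1.87% and 3.03%. The WT E7107 samples lay far above all others, and Y36C E7107 overlapped WT DMSO but not Y36C DMSO, whose highest value was 1.54%.

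NR4A1 encodes an orphan nuclear receptor that is quickly induced by growth signals, and its intron 4 lies at chr12:52450430-52450840. At its 3′ boundary NR4A1 intron 4 had 96.35%, 97.64% and 98.39% in WT E7107 and 1.47%, 3.8% and 8.33% in Y36C E7107. Both DMSO groups of NR4A1 intron 4 overlapped Y36C E7107 at this end, where the medians were 3.71% for WT and 4.58% for Y36C. NR1D1 encodes the clock repressor REV-ERBα, and its 103-base intron 3 at chr17:38252841-38252943 was at a mean of 98.17% ± 0.80 (SD, n = 6) at the 3′ boundary in WT E7107. In Y36C cells the same boundary of NR1D1 was at 7.69% ± 5.25 in DMSO and 9.29% ± 4.11 in E7107, and the samples of these 2 groups overlapped.

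AMOTL2 encodes an angiomotin-like protein of cell junctions. The 3′ boundary of its intron 3 at chr3:134085270-134086338 had 93.68%, 94.71% and 96.96% in WT E7107, 1.17%, 1.82% and 4.19% in Y36C E7107, and 0%, 0.36% and 0.92% in Y36C DMSO. Here all Y36C E7107 samples were above all Y36C DMSO samples, by 1.76 points on average.

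PPAN encodes a ribosome biogenesis factor, and its 197-base intron 3 had the highest mean of the 9 at an end in WT E7107, 98.88% ± 0.59. This intron overlaps an exon of another gene, so reads of the 2 genes cannot be told apart there. TWNK, the mitochondrial DNA helicase Twinkle, was at 95.70% ± 0.75 in WT E7107 and 3.19% ± 2.67 in Y36C E7107 at the 5′ boundary of intron 2. REXO4, THAP7 and CEP170 completed the 9. The exonuclease-like REXO4 was at 96.51% ± 1.74 in WT E7107 and 3.27% ± 1.86 in Y36C E7107 at the 5′ boundary of intron 1, and THAP7 at 94.09% ± 2.05 and 1.58% ± 1.48 at that of intron 3. CEP170, a centrosome protein, had the widest spread of these, with 80% to 100% in WT E7107 and 0% to 3.57% in Y36C E7107 at the 5′ boundary of intron 5.

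A boundary read and a spliced read are alternatives at one site, but the spliced reads can also leave for another site. The share of spliced reads at an end that did not use the intron itself (off-intron share) leaves the boundary reads out. The rule put no condition on it in Y36C cells. In WT DMSO the rule limited it, since the intron had to be the most used junction of both sites, and in WT E7107 it is taken over the spliced reads that the 60% threshold left. Its comparison within Y36C cells is therefore given as a test, and those that involve WT cells as descriptions. Over all 1428 introns, the median group mean of this share at the 5′ end was 0.067% in untreated Y36C cells and 0.26% after E7107, and 0.089% in WT DMSO and 1.168% in WT E7107. At the 3′ end the upper quartile went from 0.419% to 1.06% in Y36C cells and from 0.427% to 8.089% in WT cells.

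In Y36C cells, 218 of the 2856 ends had a higher off-intron share in E7107 than in DMSO and 7 a lower one (limma, adjusted p of 0.05 or less), of 940 ends that passed the filter. They were 106 5′ ends and 112 3′ ends, in 211 introns of 149 genes. Over all 84239 ends tested, 20.3% were higher and 1.65% lower. As a share of all ends of each kind, 7.63% of the set were higher, 8.3% of the introns still spliced in WT E7107 (at most 10% at both ends) and 9.07% of all eligible introns. It was 8.9% for neighbours of the set in the same transcripts, 11.3% for the other introns of these transcripts and 17.7% for those not spared. The 218 ends of the set are therefore close to the background. A rise of at least 5 points was found at 82 ends of the set, and of at least 10 points at 35. The shares of all eligible ends at these sizes were not computed, so nothing about the set is read from them.

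The junctions that gained in Y36C E7107 were mostly long ones, in the set as among all introns. At 86 of the 106 5′ ends and 105 of the 112 3′ ends, the row with the largest rise joined the site to an annotated splice site beyond the intron, as a junction that skips an exon does. These were 81.1% and 93.8% of the risen ends of the set, beside 86.7% and 90.8% of the 8628 and 8456 risen ends of all eligible introns. Sites inside the intron that are not annotated had the largest rise at 11 5′ ends and 3 3′ ends. Summed over such long junctions to annotated sites, the mean PSI of the 1428 introns at the 3′ end was 0.562% in Y36C DMSO (samples 0.544% to 0.581%) and 1.176% in Y36C E7107 (1.132% to 1.225%). WT DMSO was at 0.592% (0.558% to 0.631%) and WT E7107 at 1.865% (1.722% to 1.996%). The samples of both E7107 groups were above all DMSO samples, and those of WT E7107 above those of Y36C E7107. The same sums were not computed over all eligible introns, and the rule set the boundary reads at these sites in both E7107 groups. Nothing particular to the set is therefore read from these levels.

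The 10 introns with the largest rise, 1 a gene, all gained a long junction to an annotated site. RIF1, a factor in telomere and double-strand break biology, led with the 3′ end of intron 23 at chr2:152313135-152314274. The off-intron share at this end of RIF1 was 1.47%, 2.38% and 3.26% (lowest, median, highest) in Y36C DMSO and 20.93%, 38.07% and 43.24% in Y36C E7107. The increase was 33.61 points, or 2.84 ± 0.20 (SE) in natural-log odds (limma, adjusted p = 2.37e-06), and the groups did not overlap. The gaining junction of RIF1 spanned chr2:152311674-152314274, and its PSI among all reads at the site was 2.23% in Y36C DMSO and 35.57% ± 7.6 (SD) in Y36C E7107.

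BCL9L encodes a coactivator of β-catenin, and its intron 1 in the 5′ untranslated region at chr11:118789589-118795946 overlaps an exon of another gene. The share at the 5′ end of BCL9L intron 1 was 17.2%, 22.03% and 31.67% in Y36C DMSO and 51.72%, 53.28% and 55.62% in Y36C E7107 (limma, 1.31 ± 0.17, adjusted p = 0.000165). HERPUD1, an endoplasmic reticulum stress protein, went from 7.2%, 9.09% and 14.81% to 33.66%, 38.14% and 41.82% at the 5′ end of its 88-base intron 2 (limma, 1.68 ± 0.17, adjusted p = 3e-05). COASY, which encodes the enzyme of the last steps of coenzyme A synthesis, went from 2.06%, 3.36% and 6.37% to 20.59%, 23.26% and 32.29% at the 3′ end of intron 5 (limma, 1.97 ± 0.21, adjusted p = 3.47e-05). In all 3 the Y36C E7107 samples were above all Y36C DMSO samples.

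The remaining 6 rose by 17.54 to 29.32 points (limma, adjusted p from 4.13e-05 to 0.00546). TSPAN5, a tetraspanin, rose by 29.32 points at the 3′ end of intron 3, EDRF1 by 25.59 at that of intron 7, and the lipid kinase PIP5K1A by 21.77 at that of intron 13. KNOP1 rose by 18.9 points at the 3′ end of intron 3, the shelterin subunit TINF2 by 18.6 at the 5′ end of intron 3, and the ESCRT-III factor IST1 by 17.54 at the 5′ end of intron 7. TINF2 had the widest range in Y36C E7107, from 5.71% to 29.41%, and was the only 1 of the 10 whose Y36C groups overlapped. EDRF1 had a higher mean in Y36C DMSO than in WT DMSO, 41.11% ± 8.25 against 23.58% ± 4.14, but limma did not call this difference.

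**Figure D2:**
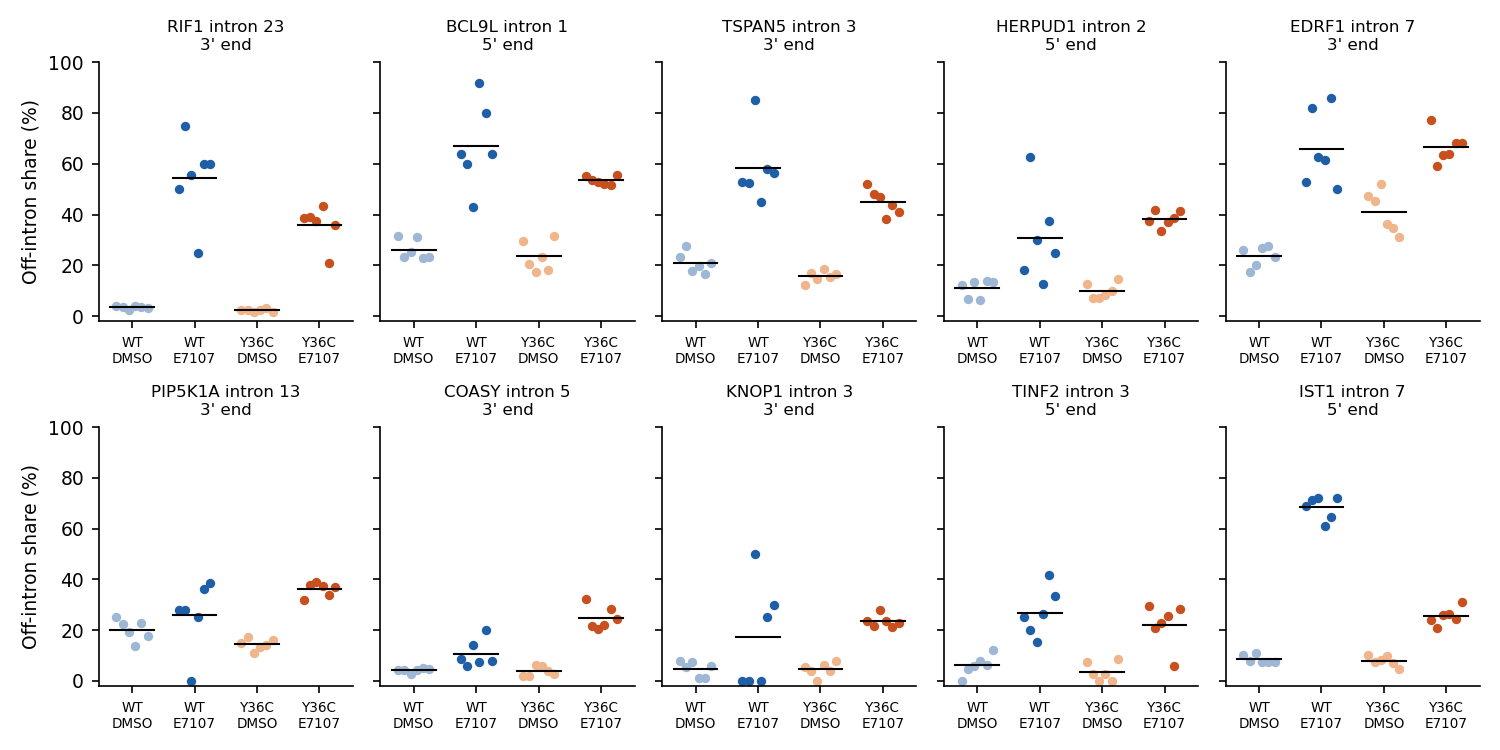
Off-intron share (percent of spliced reads at the end that do not use the intron) at the 10 ends with the largest rise in Y36C cells. Points are the 6 samples of each group and lines the group means. In RIF1 the Y36C E7107 samples run from 20.93% to 43.24% and the Y36C DMSO samples from 1.47% to 3.26%.

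In WT cells, 475 of the 2856 ends had a higher off-intron share in E7107 and 24 a lower one, of 1492 that passed the filter. Over all 82994 ends tested 10.7% were higher and 4.67% lower. As a share of all ends, 16.6% of the set were higher, 17.8% of its neighbours in the same transcripts, 15.6% of the other introns of these transcripts, 13.4% of those not spared and 1.9% of the introns still spliced in WT E7107. The set was thus close to the other introns of its transcripts. At these sites at least 60% of reads crossed the boundary in WT E7107, and the part of this in the share was not tested. IST1 is an example, with a mean 5′ boundary PSI at intron 7 of 2.48% in WT DMSO and 67.50% in WT E7107. The off-intron share at the 5′ end of IST1 intron 7 was 8.63% ± 1.58 (SD) in WT DMSO and 68.32% ± 4.53 in WT E7107. The long junction that gained most in Y36C cells had a PSI among all reads of 6.08% and 5.29%. It is only a part of what the share counts, so these values do not give the share on the scale of all reads. In Y36C cells the same junction of IST1 was at 6.63% in DMSO and 21.55% in E7107.

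The effect of E7107 on the off-intron share was compared between the genotypes as an interaction in all 24 samples. At 417 of the 2856 ends of the set the effect in Y36C was below that in WT, and at 51 above it (limma, adjusted p of 0.05 or less), of 1461 that passed the filter. Over all 88599 ends tested, 7.07% were lower and 12.8% higher. As a share of all ends, 14.6% of the set were lower and 1.79% higher, against 15.8% and 2.94% of its neighbours, 12.8% and 4.04% of the other introns of these transcripts, 9.01% and 6.83% of those not spared, 3.33% and 6.01% of the eligible introns and 0.984% and 6.01% of those still spliced in WT E7107. The rule left few spliced reads at these sites in WT E7107 and most of them in Y36C E7107, so nothing about the set is read from these counts. Of the 10 named ends, IST1 had a difference, Y36C minus WT, of -42.15 points in this effect and COASY one of 14.68 points.

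In DMSO, no end of the set differed in off-intron share between the genotypes (limma), of 737 that passed the filter, and 57 had an unadjusted p under 0.05. Over all 72837 ends 0.0206% were higher and 0.00549% lower in Y36C cells.

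Some genes held many introns of the set. Of the 664 genes 343 held 1 such intron, 168 held 3 or more, and 21 held 8 or more. JAG1, the Notch ligand, had the most, 13 of 22 eligible introns. RIF1 had 11 of 33, the ubiquitin-conjugating enzyme UBE2O 10 of 14, the kinase TAOK2 10 of 18 and the deubiquitinase USP36 10 of 20. The tumour suppressor BAP1, the ephrin receptor EPHA2, the clock gene PER1 and the splicing factor SART3 had 9 each. CDCA8, which encodes borealin of the chromosomal passenger complex, had 8 of 10.

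In JAG1, none of the 22 eligible introns was as low as 10% at both ends in WT E7107. The mean boundary PSI in WT E7107 was 8.36% and 20.84% at the 5′ and 3′ ends of the 8686-base intron 2, and 90.83% and 89.54% at those of the 856-base intron 13. In Y36C E7107 intron 13 of JAG1 was at 5.48% and 3.53%.

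**Figure D3:**
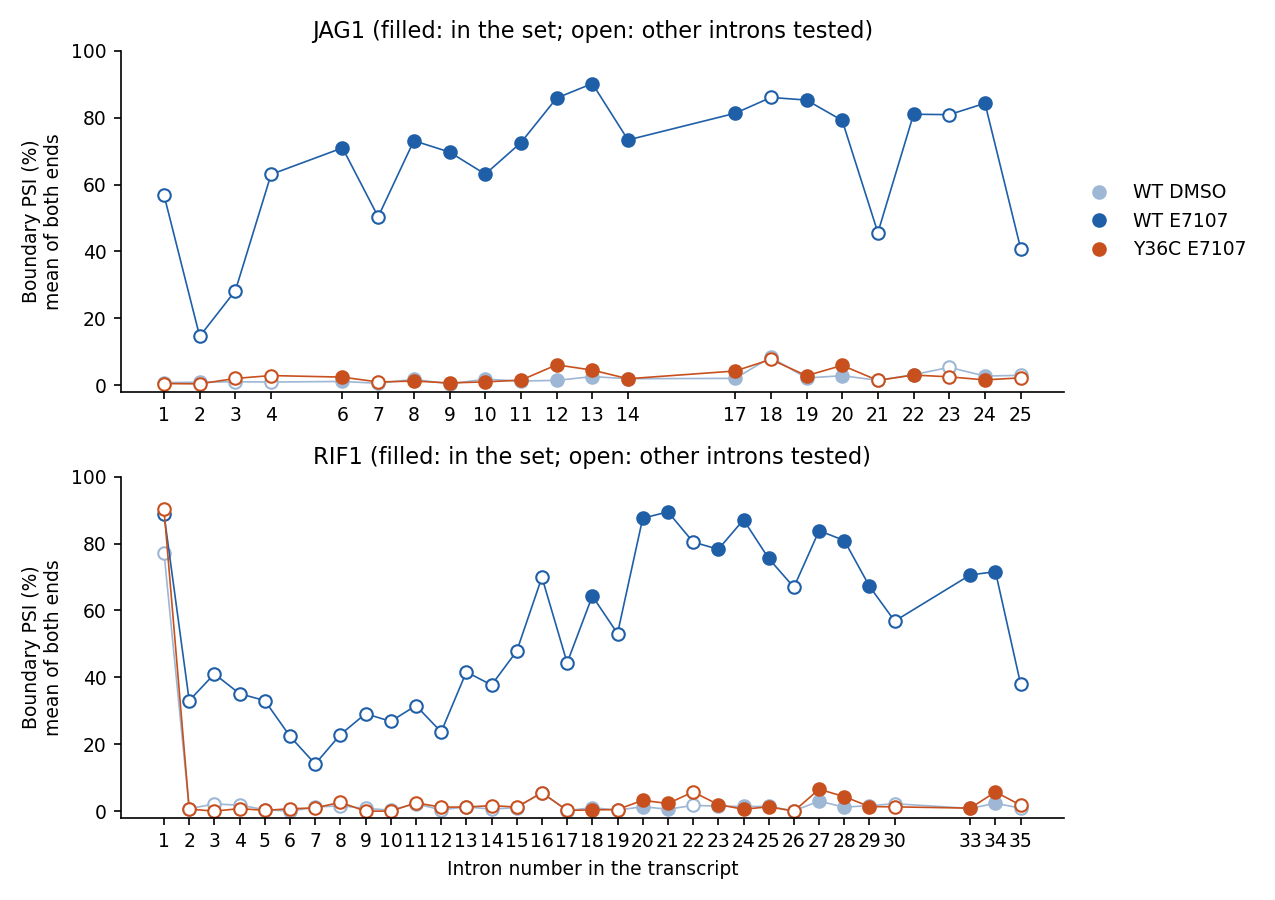
Mean boundary PSI of both ends (percent) by intron number in JAG1 and RIF1, for WT DMSO, WT E7107 and Y36C E7107 (means of 6 samples). Filled points are introns of the set and open points other eligible introns. In WT E7107 the level changes from intron to intron within a gene, and the filled points of RIF1 start at intron 18.

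RIF1 differed along its length. Of its 11 introns of the set, the first was intron 18. Upstream of it, RIF1 introns 2 to 15 and 17 were low in WT DMSO and were under 60% at both ends in WT E7107. Intron 16 exceeded 60% at both ends in WT E7107 but was at 7.40% at the 3′ end in WT DMSO. Intron 1 was already retained without drug, at 76.86% and 77.71% in WT DMSO. At intron 8 of RIF1 the boundaries were at 33.61% and 12.15% in WT E7107, and at intron 20 at 89.81% and 85.34%. In Y36C E7107 intron 20 of RIF1 was at 2.85% and 3.61%.

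The introns beside those of the set were retained as well. The 1326 eligible introns next to a member in the same transcript, themselves outside the set, had a median of 56.88% at the 5′ and 59.16% at the 3′ boundary in WT E7107, against 1.74% and 2.25% in WT DMSO. By limma, 2598 of their 2652 ends were higher in WT E7107 than in WT DMSO and 0 lower, where 47.5% of the 189159 rows tested were higher and 4.3% lower. The further 3451 eligible introns of these transcripts had medians of 42.79% and 45.46% in WT E7107, and all 94189 eligible introns 7.38% and 7.47%. Of the 6902 ends of the further introns, 6231 (90.3%) were higher in WT E7107 than in WT DMSO and 14 lower. In Y36C E7107 the neighbours were at 1.94% and 2.63%. Of their 2652 ends, 325 (12.3%) were higher than in Y36C DMSO and 6 (0.226%) lower, with 2158 that passed the filter. Among the ends of the further introns of these transcripts, 10.5% were higher and 0.232% lower in Y36C E7107. As a share of all ends of the eligible introns, 8.34% were higher and 0.197% lower, and of all rows tested 9.89% and 0.364%. Introns of 1 transcript share its expression level and stability, which were not measured here.

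The introns of the set were short and rich in G and C beside the eligible introns, and less so than those not spared. Their median length was 643.5 bases, against 354 bases for the 161 not spared, 1681 for the 40456 still spliced in WT E7107 and 1381 for all eligible introns. The median GC content was 49.23% in the set, 56.56% in those not spared, 42.47% in those still spliced and 43.97% in all. The downstream exon exceeded the intron in GC content by a median of 3.24 points in the set and 0.33 points in those not spared, and by 3.61 and 3.23 points in the other 2. These are descriptions of introns chosen by their readout, and the comparison with the not spared introns was chosen after seeing the data. The not spared introns were also higher without drug. Their median boundary PSI at the 5′ and 3′ ends was 2.91% and 3.5% in WT DMSO, against 1.47% and 1.78% in the set. In Y36C DMSO it was 3.10% and 4.13%, against 1.26% and 1.52%. The part of this starting level in passing the 10% threshold was not tested.

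**Figure D4:**
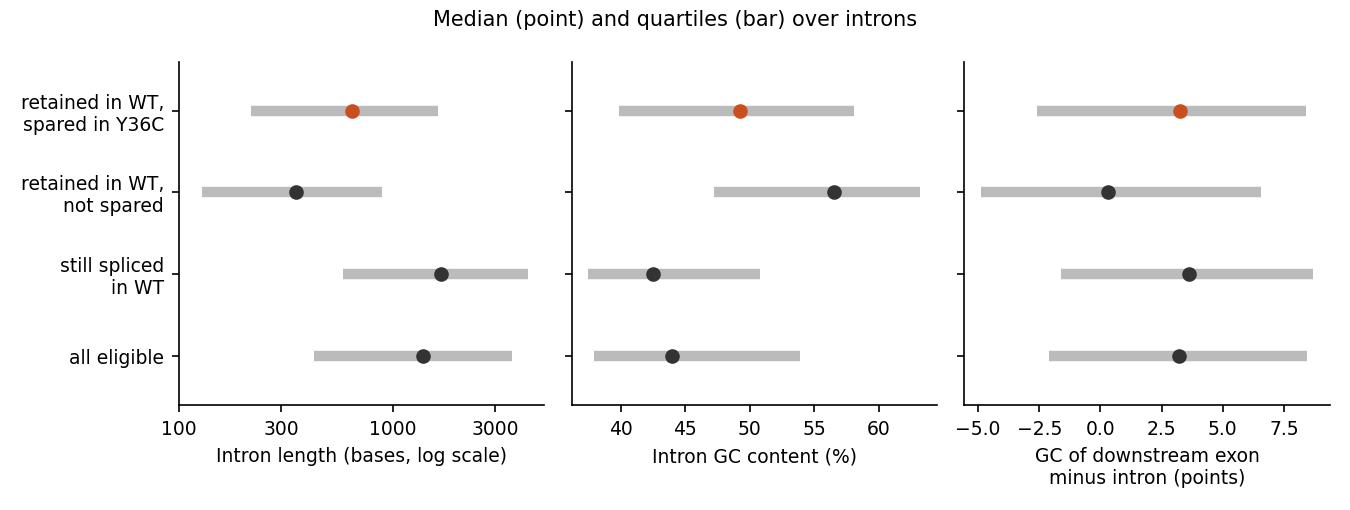
Intron length (bases, log axis), intron GC content (percent) and GC content of the downstream exon minus that of the intron (percentage points). Points are medians and bars quartiles over introns, for the 1428 introns of the set, the 161 not spared, the 40456 still spliced in WT E7107 and all 94189 eligible introns. The set lies between the not spared and the still spliced introns in length and GC content.

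The letters at the splice sites are given beside the background. GT and AG ended 99.8% of the introns of the set and 99.1% of all eligible introns. The donor hexamer was GTAAGT or GTGAGT in 28.5% and 27.5%, and the last 3 bases were CAG in 63.7% and 62.7%. C and T made up a median of 75% of the 20 bases from 23 to 4 before the end of the intron in both, and T alone a median of 40% in the set, 45% in all eligible introns, 50% in those still spliced and 35% in those not spared. First introns were 7.07% of the set and 9.33% of all, and 95.4% and 94.3% lay in the coding region.

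The branch point motif YTNAY lay in the window of 64.5% of the introns of the set, 44.1% of those not spared, 67.3% of those still spliced and 64.6% of all eligible introns. CTNAC, 1 of its 4 spellings, was found in 24.9%, 18.0%, 20.1% and 20.6%. Of the 1589 introns retained in WT E7107, 992 had a match and 92.8% of these were spared, whereas 84.9% of the 597 without a match were. Their median PSI in Y36C E7107 was 2.56% with and 3.54% without, and in Y36C DMSO 1.52% and 1.75%.

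Among the same 1589 introns the share spared went from 95.2% in the group lowest in GC content of 4 equal groups to 83.4% in the group highest. By length it was 85.0% in the shortest group, of 73 to 205 bases, and 93.5% in the longest. The median PSI in Y36C E7107 was 2.09% in the lowest and 3.66% in the highest group of GC content, and that in Y36C DMSO was 1.30% and 1.94%. Length, GC content and motif vary together, and their separate parts were not tested.

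Gene groups differed in how many of their introns belonged to the set, of which the share over all genes was 1.52% of 93865 annotated eligible introns. The Mediator complex, which links transcription factors to RNA polymerase II, had 19 of 333 (5.71%), in MED13L, MED15, MED17, MED19 and MED8. Cyclins, their kinases and CDC25 phosphatases had 20 of 369 (5.42%), U2 snRNP and 3′ splice site factors 12 of 337 (3.56%), mitotic kinetochore and spindle genes 28 of 846 (3.31%), and DEAD and DEAH box helicases 25 of 804 (3.11%). DNA replication genes had 13 of 651 (2.0%). These lists are of unequal expression and intron length, and no test was made.

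Several lists had no intron in the set. None was found in proteasome subunits (299 eligible introns), cytosolic ribosomal proteins (390), aminoacyl-tRNA synthetases (592), respiratory complex I (172) or SR and hnRNP proteins (329). In the first 4 of these 70.3% to 84.9% of the eligible introns were still spliced in WT E7107, and 49.5% in SR and hnRNP proteins, against 43.0% over all genes. Mitochondrial ribosomal proteins had 2 of 351 (MRPL17 and MRPL44), glycolysis 2 of 201, both in the hexokinase HK2, and translation initiation factors 2 of 430, both in EIF3A. The core spliceosome had 8 of 700 (1.14%), the nuclear pore 8 of 621 (1.29%, in part in POM121 and its near-identical copy POM121C, between which reads may be split), DNA repair 4 of 805 (0.497%), and the BCL2 family and caspases 1 of 131 (0.763%).

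**Figure D5:**
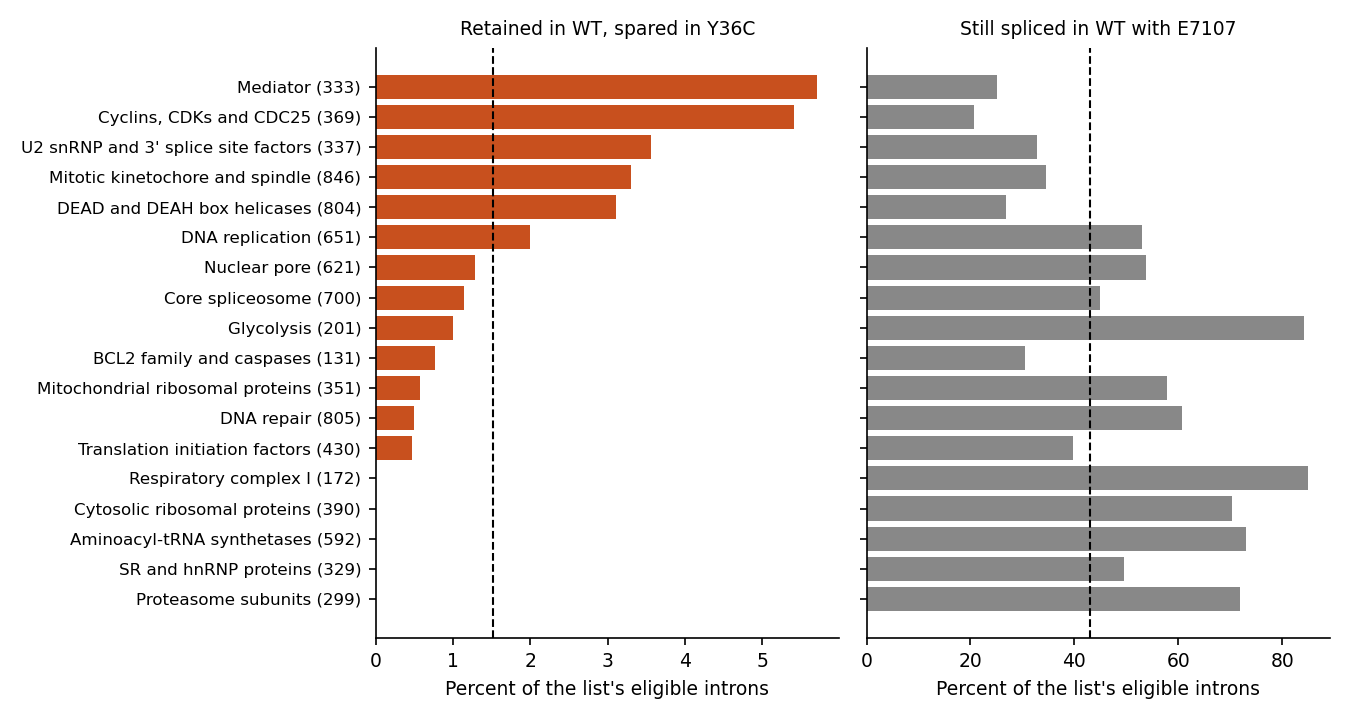
Percent of each gene list's eligible introns (number in brackets) that belong to the set (left) or are still spliced in WT E7107 (right). Dashed lines are the values over all genes, 1.52% and 43.0%. Lists with the most introns of the set are Mediator (5.71%) and the cyclin list (5.42%).

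In the cell cycle lists, CDK9, the kinase of the elongation factor P-TEFb, had 90.12% to 92.03% in the 6 WT E7107 samples and 0% to 5.97% in Y36C E7107 at the 5′ boundary of its 100-base intron 4 (chr9:130550393-130550492). CCNL2, a cyclin linked to splicing, had 87.69% to 91.35% and 1.6% to 4.37% at that of its 87-base intron 7. The replication licensing factor CDT1 had 91.99% to 94.18% and 2.17% to 5.84% at the 3′ boundary of its 94-base intron 2. CDCA8 intron 6 had 78.72% to 92.11% and 2.26% to 7.33% at its 3′ boundary, and INCENP, its partner in the chromosomal passenger complex, 67.69% to 85.71% and 0.71% to 4.07% at that of its 77-base intron 12. WT E7107 and Y36C E7107 did not overlap in any of these 5, as the thresholds of the rule nearly enforce.

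CDCA8 intron 6 also spliced elsewhere, and its off-intron share at the 5′ end rose by 6.66 points in Y36C cells (limma, 1.61 ± 0.20, adjusted p = 0.000112). Among the splicing factors, CHERP, which is associated with U2 snRNP, had 74.03% to 86.3% in WT E7107 and 1.64% to 6.56% in Y36C E7107 at the 3′ boundary of intron 10. CWC22, which links the spliceosome to the exon junction complex, had 50% to 93.75% and 0% to 4.55% at that of the 5464-base intron 13. MED17 intron 9 had 68.57% to 86.11% and 0% to 3.06%, and BCL2L11, the apoptosis activator BIM, 38.46% to 85.71% and 0% to 6.25% at the 3′ boundary of intron 1 in its 5′ untranslated region. Both sets of samples were apart in each, which the rule again nearly enforces. The range in WT E7107 was over 40 points in CWC22 and BCL2L11.

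Of 5 genes that the study followed, MCL1, RBM5, CDC25B, CDK10 and EIF4A1, only RBM5 held introns of the set, namely 12, 13, 14 and 19 of the 24 eligible ones. RBM5, a splicing regulator of apoptosis genes, had 71.77% and 66.33% at the 5′ and 3′ boundaries of intron 14 in WT E7107 and 5.44% and 5.12% in Y36C E7107. Introns 9, 10 and 11 of RBM5 were retained in WT E7107 too but were not spared, and introns 10 and 11 were at 12.71% and 11.94% and with 14.08% and 13.80% in Y36C E7107. MCL1, the antiapoptotic BCL2 relative, stood just outside the rule. Its intron 1 had 59.90% and 89.65% in WT E7107 and 5.20% and 5.47% in Y36C E7107, and its intron 2 had 88.44% and 58.90%, and 4.20% and 3.71%. In both introns of MCL1 the lower value was at the outer end, away from the middle exon.

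CDC25B, CDK10 and EIF4A1 held none. In EIF4A1, a translation initiation helicase, the highest group mean in WT E7107 was 42.79%, at the 3′ boundary of intron 1. In the mitotic phosphatase CDC25B the highest was 51.97%, at the 3′ boundary of intron 5, and that intron was at 26.75% in Y36C E7107.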

How the data were processed

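The authors aligned polyA RNA reads to hg19 with STAR and turned junction counts into PSI, and each of the 24 deposited files holds 1 percent value per junction or exon-intron boundary, relative to all reads at the splice site. A site with no reads is listed as 0 throughout and was treated as missing. Counts, read strand and aligner version are not given in the sources used here. Rows without strand or on the mitochondrial genome were left out (6433 of 1830076 in each file). Only reads at both ends are seen, not across a whole intron.

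Boundary PSI and off-intron share were tested with limma 3.58.1 in R 4.3.3 on natural-log odds with an offset of 1 percentage point, with Benjamini-Hochberg adjustment over all features with reads in every sample compared and a mean of at least 0.5%. Pairwise fits held 12 samples and the interaction all 24. An adjusted p of 0.05 or less was called. The fits were tested on simulated data. Genes come from GENCODE 44 on GRCh37.

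The members, gene lists and tests were chosen with earlier results of these data known. The text names the 10 introns, 1 a gene, with the largest genotype difference under E7107, the 10 with the largest called rise of off-intron share in Y36C cells, up to 3 a gene list, those nearest the thresholds, those of genes the study named, and genes with 3 or more. Alternatives were other offsets, the percentage as response, no filter, a replicate block, a minimum change of 5 points, other forms of the rule, and no introns overlapping another gene's exon. Some genes that met these rules are not reported here.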

Additional observations from a re-analysis of the deposited data

Results flagged for a closer look

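In 64 groups of 6 values, the highest or lowest sample stood apart by Dixon's criterion in 8, where chance gives about 1 in 20. The median over the set at the 3′ boundary in WT E7107 was lowest in replicate 5, at 72.97%. In Y36C E7107, 1 sample stood above the others in boundary PSI in CEP170 intron 5 (3.57% at the 5′ and 10% at the 3′ boundary), PPAN intron 3 (10% at the 5′ boundary) and TWNK intron 2 (8.48% at the 5′ boundary). The values of CEP170 intron 5 took few distinct levels, and the depth there is unknown. In the off-intron share of Y36C E7107, 1 sample was high at the 3′ end of KNOP1 intron 3 (28.13%), and 1 was low at the 3′ end of RIF1 intron 23 (20.93%) and at the 5′ end of TINF2 intron 3 (5.71%).

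The effect of E7107 on the off-intron share differed between the genotypes by the interaction test of limma at 2 named ends. At the 3′ end of COASY intron 5 the difference, Y36C minus WT, was 14.68 points. At the 5′ end of IST1 intron 7 it was -42.15 points. The rule that chose the introns set the level of their spliced reads in WT E7107, over which this share is taken, so both are given as values.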

How the results depend on the processing

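The set held 1537 introns with medians in place of means (1334 shared with the 1428), 1419 to 1526 without 1 replicate (1290 to 1331 shared), and 1633 with reads required in 5 of 6 samples a group. Of the alternatives to the 17 main counts, 103 stayed within 1.5 times and 17 did not, and the 10 named ends kept direction and call in all 50. A minimum change of 5 points left 82 of the 218 ends higher in off-intron share in Y36C cells, 7 of 24 lower in WT cells, 26 of 51 higher in the interaction, 75 of 262 higher and 1 of 3 lower in boundary PSI in Y36C cells, and 3 of the neighbours' 6 lower. An offset of 5 points gave 11 lower ends in off-intron share in Y36C cells in place of 7, and 12 in WT cells in place of 24. With the percentage as the response, 7 were lower in WT cells, 30 higher in the interaction, and 0 lower in boundary PSI in Y36C cells. With a replicate block, 3 ends were lower in off-intron share in Y36C cells and 14 in WT cells, 111 were higher and 0 lower in boundary PSI in Y36C cells, and 201 neighbouring ends were higher and 1 lower. The replicate numbers did not pair the samples: deviations of same-numbered samples correlated at -0.00567 to 0.0102, and the own number was best in 1 or 2 of 6 pairs. The block changed no other call by over 1.5 times. The cause of these shifts was not tested. Depth per site is unknown, so an intron listed at 0% may hold a share too small for its reads.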
